A study of Homo sapiens with 12 samples.

Results

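The genes described here are 36 contractile and actin cytoskeleton genes, taken from a list of symbols drawn up as targets of the transcription factor SRF. They were matched to the Ensembl identifiers of the deposited gene tables. All 36 were found among the 61541 gene identifiers of the tables, and no measured value entered the rule. The members were, however, chosen with earlier results of these data known, so they are not a list blind to the data. They were divided into 9 smooth muscle isoforms, 3 contractile regulators that smooth muscle and other cells splice differently, 9 ubiquitous actin and myosin genes, 13 adhesion linkers and crosslinkers, and a pair made of the transcription factor gene SRF and the chaperone gene CRYAB. A filter on low counts left 35 of the 36 for testing. MYH11, the smooth muscle myosin heavy chain, did not pass it.

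The RNA came from IMR90 cells, a widely used line of human fetal lung fibroblasts, wild type by the labels and the 1 cell source of all groups. Every group received doxorubicin, an anthracycline that breaks DNA, for 24 h, followed by culture for 8 days or longer, in which a senescent state was allowed to develop. The 4 groups were plastic at 100 nM, gel of 2 kPa at 100 nM, plastic at 250 nM and gel of 2 kPa at 250 nM, with 3 libraries each. Doses are written as in the sample titles, although the treatment protocol has µM beside these figures, and the soft substrate is called a hydrogel in the design text and a PDMS coating in the growth protocol. No library without the drug was analysed here, and nothing in the labels says that replicates were separate cultures, so the p-values measure only the spread between these samples, which may be technical.

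The question set by the series title is how substrate stiffness bears on the transcriptome of fibroblasts after doxorubicin. SRF is a transcription factor that binds a short A and T rich element, the CArG box, in the promoters of actin, myosin and actin-binding genes. Its coactivators MRTFA and MRTFB bind monomeric actin in the cytoplasm and enter the nucleus when actin is assembled into filaments, which links the state of the cytoskeleton to transcription of its own parts. In lung fibroblasts this circuit is best known for the myofibroblast state, in which cells on stiff matrix make the smooth muscle actin of ACTA2, build contractile stress fibres and pull on the matrix.

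Promoter sequence was available for 31 of the 36 genes, as 54 windows of 300 bases that run from 250 bases before a transcription start to 50 bases after it (RefSeq, GRCh38.p14). The windows were searched on both strands for the CArG box in its strict form, CC, then 6 bases that are each A or T, then GG, a motif that reads as the same class on either strand. It was found in 11 of the 31 genes (35.5%), against 438 of 27305 genes with a window (1.6%), and in 13 of 54 windows (24.1%), against 454 of 35116 (1.29%). Because the genes were listed as SRF targets, a share above that of all genes was built into the choice. It is a description of the list and not a result. A form with 1 mismatch in the outer 4 bases was found in 9 of the 31 genes (29%) and in 14.4% of all genes with a window, and either form in 15 of 31 (48.4%) and 15.6%. The strict form was found in ACTG2 and SRF at 2 places of 1 window each. In FHL2 it was found before different starts, as CCTTAAAAGG and as CCTTATATGG. The other genes with it were MYLK, TES, ACTN1, TGFB1I1, ACTG1, CNN2, TPM4 and FLNA. The windows of ACTA2, CNN1, MYH9 and MYH10 held neither form, which says only that these letters are not in those windows. TAGLN, MYL9, MYH11, ACTB and CRYAB had no window in the table.

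The following stretches, the 120 bases just before the start site, are shown because they place the element in a smooth muscle actin, the regulator MYLK, the gene of SRF itself, a ubiquitous actin, a ubiquitous calponin and 2 linkers. Strict CArG boxes are in capitals, and each sequence is written 5′ to 3′ on the strand of its gene.
ACTG2, chr2:73892888-73893007, plus strand: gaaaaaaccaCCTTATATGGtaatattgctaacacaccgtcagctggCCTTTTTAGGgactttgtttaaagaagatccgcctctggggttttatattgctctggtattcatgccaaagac
MYLK, chr3:123620549-123620668, minus strand: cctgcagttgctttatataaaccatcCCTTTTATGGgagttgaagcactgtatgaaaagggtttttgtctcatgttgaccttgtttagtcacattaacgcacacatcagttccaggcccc
SRF, chr6:43171149-43171268, plus strand: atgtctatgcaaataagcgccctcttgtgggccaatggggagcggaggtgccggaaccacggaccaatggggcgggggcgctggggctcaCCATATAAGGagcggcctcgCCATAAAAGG
ACTG1, chr17:81512800-81512919, minus strand: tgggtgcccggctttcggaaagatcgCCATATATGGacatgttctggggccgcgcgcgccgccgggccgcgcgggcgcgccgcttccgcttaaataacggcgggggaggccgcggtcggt
CNN2, chr19:1026488-1026607, plus strand: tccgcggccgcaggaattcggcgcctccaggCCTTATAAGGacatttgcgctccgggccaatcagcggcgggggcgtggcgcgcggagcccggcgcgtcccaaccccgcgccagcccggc
TGFB1I1, chr16:31473085-31473204, plus strand: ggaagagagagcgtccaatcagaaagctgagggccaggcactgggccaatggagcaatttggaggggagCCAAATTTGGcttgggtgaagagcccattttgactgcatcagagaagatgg
FLNA, chrX:154374635-154374754, minus strand: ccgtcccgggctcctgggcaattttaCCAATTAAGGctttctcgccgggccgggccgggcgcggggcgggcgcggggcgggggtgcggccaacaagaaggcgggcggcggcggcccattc
ACTG2 carries CCTTATATGG from 110 to 101 and CCTTTTTAGG from 73 to 64 bases before the start, and SRF carries CCATATAAGG from 30 to 21 and CCATAAAAGG from 10 to 1 bases before it. In MYLK, ACTG1 and FLNA the element lies from 94 to 85 bases before the start. A match of letters describes the sequence and does not show that SRF binds there.

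Library totals were 5887056 to 7351916 expected counts in the 100 nM libraries and 2229069 to 2730309 in the 250 nM libraries. Dose coincides with the library set, since the file names of the 250 nM libraries alone mention molecular identifiers, so dose and library set cannot be told apart. Levels are given as CPM (counts scaled to a common library total after TMM normalization). Of the 9 fibroblast markers 9 were tested. EdgeR called 4 of them over both doses, COL1A1, COL1A2, DCN and LUM (adjusted p under 0.05), beside 0.795% of all tested genes. These 4 fell on gel by 1.91, 1.42, 1.67 and 1.34 on the log2 scale, and the changes of the other fibroblast markers are not given here. The summed level of all 9 overlapped between substrates at each dose. It was 10375 to 11930 CPM on plastic and 9157 to 12233 on gel at 100 nM, and 11089 to 14586 and 9491 to 11107 at 250 nM. Of 8 epithelial markers 2 passed the filter. The 8 summed to 38.6 to 81.6 CPM on plastic and 33.4 to 62.8 on gel at 100 nM, and to 77.8 to 179 and 61.8 to 122 at 250 nM. Defining markers of striated muscle were at or near 0, with 0 of 10 tested, ACTA1, MYH6, MYH7, TNNT3, MYOD1 and MYOG at 0 in all 12 libraries, and a summed level of 0.534 to 4.96 CPM over the libraries. Markers of pericytes and smooth muscle passed the filter in 7 of 10 cases, with a summed level of 174 to 220 CPM on plastic and 167 to 194 on gel at 100 nM, and 219 to 257 and 189 to 220 at 250 nM. Of 8 endothelial markers only TEK passed, and the 8 summed to 16.4 to 31.1 CPM on plastic and 7.29 to 14.2 on gel at 100 nM, and to 31.5 to 44.3 and 9.69 to 30.7 at 250 nM. The part of these markers in the results was not tested. Replicate 1 of gel at 250 nM stood apart, with a mean correlation across genes with its own group of 0.845, against 0.895 to 0.958 in the other 11 libraries, and 8.11% of its protein-coding counts on mitochondrial genes. Replicate 1 of plastic at 100 nM and replicate 1 of gel at 250 nM both had low shares of ribosomal repeat loci, 14.3% and 13.2% of counts, against 24.2% to 30.7% in the rest.

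Levels of different genes were compared per length, as TPM, the length-scaled transcript abundance in the deposited tables, averaged over the 12 libraries. Among the smooth muscle isoforms TPM2 had 441 TPM, TAGLN 315, MYL9 282, ACTA2 159, CNN1 118, ACTG2 48.4, LMOD1 5.02 and SYNPO2 0.625. The smooth muscle isoforms therefore spanned a wide range, from abundant tropomyosin and transgelin to scarce leiomodin and synaptopodin 2. MYH11 had 0 to 8 counts per library, so the fibroblasts held nearly none of the heavy chain of differentiated smooth muscle. Of the ubiquitous genes, ACTB had 3678 TPM, MYL6 2427, ACTG1 1876 and TPM4 1609, while the 2 nonmuscle myosin heavy chains had 197 (MYH9) and 9.81 (MYH10). TPM depends on the transcripts to which RSEM, the program that made the tables, assigned the reads. The mean effective length behind it was 638 to 658 bases for ACTB and 1745 to 1883 for ACTG1, and on counts, without length, ACTG1 averaged 3544 CPM and ACTB 2467. For FLNA it was 292 to 340 bases and its 761 TPM rest on that length, and for TPM1 it moved between 761 and 1412 bases from library to library.

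On gel, the smooth muscle actins, calponin, leiomodin and synaptopodin 2 stood lower in fitted value than on plastic at both doses. Of the same class, MYL9 was higher in every gel library at 250 nM, and TPM2 was level at 100 nM and lower in every gel library at 250 nM. ACTA2 was the 1 member of 35 tested that edgeR called (adjusted p under 0.05) over both doses, where it called 0.795% of all tested genes, and it was 2.40-fold lower. DESeq2 called 8 members, beside 3.13% of the genes to which it gave an adjusted p, and limma-voom 10, beside 6.5% of all tested genes. The nonmuscle myosin heavy chains MYH9 and MYH10 were also lower on gel in every library of each dose, did not reach the threshold in edgeR and were called by DESeq2 and limma-voom. Of the 13 adhesion linkers 10 were at most 1.20-fold from plastic in the average of both doses, among them ZYX, which was 1.48-fold lower on gel at 100 nM and 2.09-fold higher at 250 nM.

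ACTA2, the smooth muscle actin that defines myofibroblasts, had 207, 279 and 143 CPM in the 3 libraries on plastic at 100 nM and 33.2, 97.5 and 99.0 on gel. Its levels at 250 nM were 305, 426 and 403 CPM on plastic and 147, 195 and 196 on gel. At neither dose did gel and plastic overlap, and replicate 1 was the lowest gel library at each dose. Group means were 210 ± 68.1 CPM on plastic and 76.5 ± 37.5 on gel at 100 nM, and 378 ± 64.4 and 179 ± 27.8 at 250 nM (SD, n = 3 each). The log2 change was -1.45 ± 0.35 (SE) at 100 nM, -1.08 ± 0.35 at 250 nM and -1.26 ± 0.25 over both doses, with a 95% interval of -1.80 to -0.73. Over both doses ACTA2 fell on gel (edgeR quasi-likelihood, Benjamini-Hochberg adjusted p = 0.0346), and within 100 nM and 250 nM alone the adjusted p was 0.143 and 0.324. ACTA2 (ENSG00000107796) lies on chromosome 10 at 88935074 to 88991339 on the minus strand (GENCODE 29, GRCh38), where FAS and STAMBPL1 overlap it on the other strand.

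The ACTA2 call depended on the libraries and the method. It stood in 13 of 25 alternatives, with a log2 change between -1.38 and -1.02 in all of them. Leaving out 1 library ended it in 9 of 12 cases, which were replicates 1 and 2 of plastic and replicate 3 of gel at 100 nM and each of the 6 libraries at 250 nM, with adjusted p from 0.0564 to 0.103 in edgeR. With replicate 1 of plastic at 100 nM and of gel at 250 nM both left out, the edgeR adjusted p was 0.122. DESeq2 on all 12 libraries gave 0.000192.

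ACTG2, the smooth muscle gamma actin of gut and bladder muscle, had 102, 133 and 90.2 CPM on plastic and 34.1, 81.7 and 61.0 on gel at 100 nM. In the 250 nM libraries it reached 106, 137 and 145 CPM on plastic and 67.1, 69.9 and 73.3 on gel. All gel libraries lay below all plastic libraries of the same dose. The log2 change was -0.88 ± 0.27 (SE) at 100 nM, -0.88 ± 0.27 at 250 nM and -0.88 ± 0.19 over both doses (edgeR adjusted p = 0.0503). It was called in 11 of 25 alternatives, among them RLE scaling, upper-quartile scaling and DESeq2. ACTG2 (ENSG00000163017) lies on chromosome 2 at 73892314 to 73919865.

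CNN1, basic calponin, an actin-bound brake on myosin in smooth muscle, had 123, 96.6 and 65.1 CPM on plastic and 34.3, 55.3 and 58.0 on gel at 100 nM. At 250 nM it had 81.5, 124 and 107 CPM on plastic and 64.4, 80.6 and 71.6 on gel. The gel libraries were below the plastic ones at each dose, at 250 nM narrowly, with 80.6 and 81.5 CPM in the nearest libraries. Over both doses the log2 change was -0.74 ± 0.19 (SE; edgeR adjusted p = 0.0846).

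LMOD1, leiomodin 1, which nucleates actin filaments in smooth muscle, had 24.4, 22.1 and 24.2 CPM on plastic and 5.81, 11.5 and 11 on gel at 100 nM. Its levels at 250 nM were 27.7, 42.7 and 35.7 CPM on plastic and 1.32, 17.0 and 16.9 on gel. The lowest value, in replicate 1 of gel at 250 nM, rested on 4 counts in the library that stood apart, and the other gel libraries of that dose also lay below plastic. Over both doses the log2 change was -1.47 ± 0.38 (SE; edgeR adjusted p = 0.0945), and without that library LMOD1 was called (adjusted p = 0.00575).

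SYNPO2, synaptopodin 2, a Z-disc and stress fibre protein, had 7.74, 5.11 and 4.59 CPM on plastic and 2.00, 2.06 and 3.14 on gel at 100 nM. In the 250 nM libraries it reached 3.31, 13.6 and 8.64 CPM on plastic and 2.97, 4.37 and 1.69 on gel, where the groups overlapped. With 4 to 58 counts per library it was the scarcest tested member, and its log2 change over both doses was -1.38 ± 0.37 (SE; edgeR adjusted p = 0.104), or -0.54 by limma-trend on log2(TPM + 1), a scale that shrinks changes of scarce genes.

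TAGLN, transgelin or SM22, an early smooth muscle marker that bundles actin, had 907, 693 and 371 CPM on plastic and 205, 492 and 462 on gel at 100 nM. At 250 nM it had 324, 521 and 512 CPM on plastic and 323, 337 and 386 on gel. Its groups overlapped at both doses, and the plastic libraries of 100 nM alone spanned more than the difference between substrates. Over both doses the log2 change was -0.57 ± 0.24 (SE; edgeR adjusted p = 0.347).

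MYL9 and TPM2 had the class's 2 smallest changes over both doses. MYL9, the regulatory light chain that myosin light chain kinase phosphorylates, had 207, 267 and 217 CPM on plastic and 153, 197 and 228 on gel at 100 nM. Its levels at 250 nM were 324, 321 and 296 CPM on plastic and 334, 369 and 452 on gel, so the gel libraries were the higher ones. Its log2 change was -0.26 ± 0.19 at 100 nM and 0.30 ± 0.20 at 250 nM, and 0.02 over both doses with a 95% interval of -0.28 to 0.32 and a negative sign in 8 of 25 alternatives. TPM2, beta tropomyosin, had 266, 544 and 472 CPM on plastic and 413, 430 and 440 on gel at 100 nM. In the 250 nM libraries it reached 573, 605 and 604 CPM on plastic and 298, 534 and 549 on gel, all below plastic, with replicate 1 far below the other gel libraries. Over both doses its log2 change was -0.18 with a 95% interval of -0.58 to 0.22.

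MYH11 (ENSG00000133392) was at 0, 0.620 and 1.27 CPM on plastic and 0.726, 0.137 and 0 on gel at 100 nM, and at 0.414, 0.469 and 0.785 on plastic and 0, 0.486 and 0 on gel at 250 nM. No difference was detectable at this depth.

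**Figure D1:**
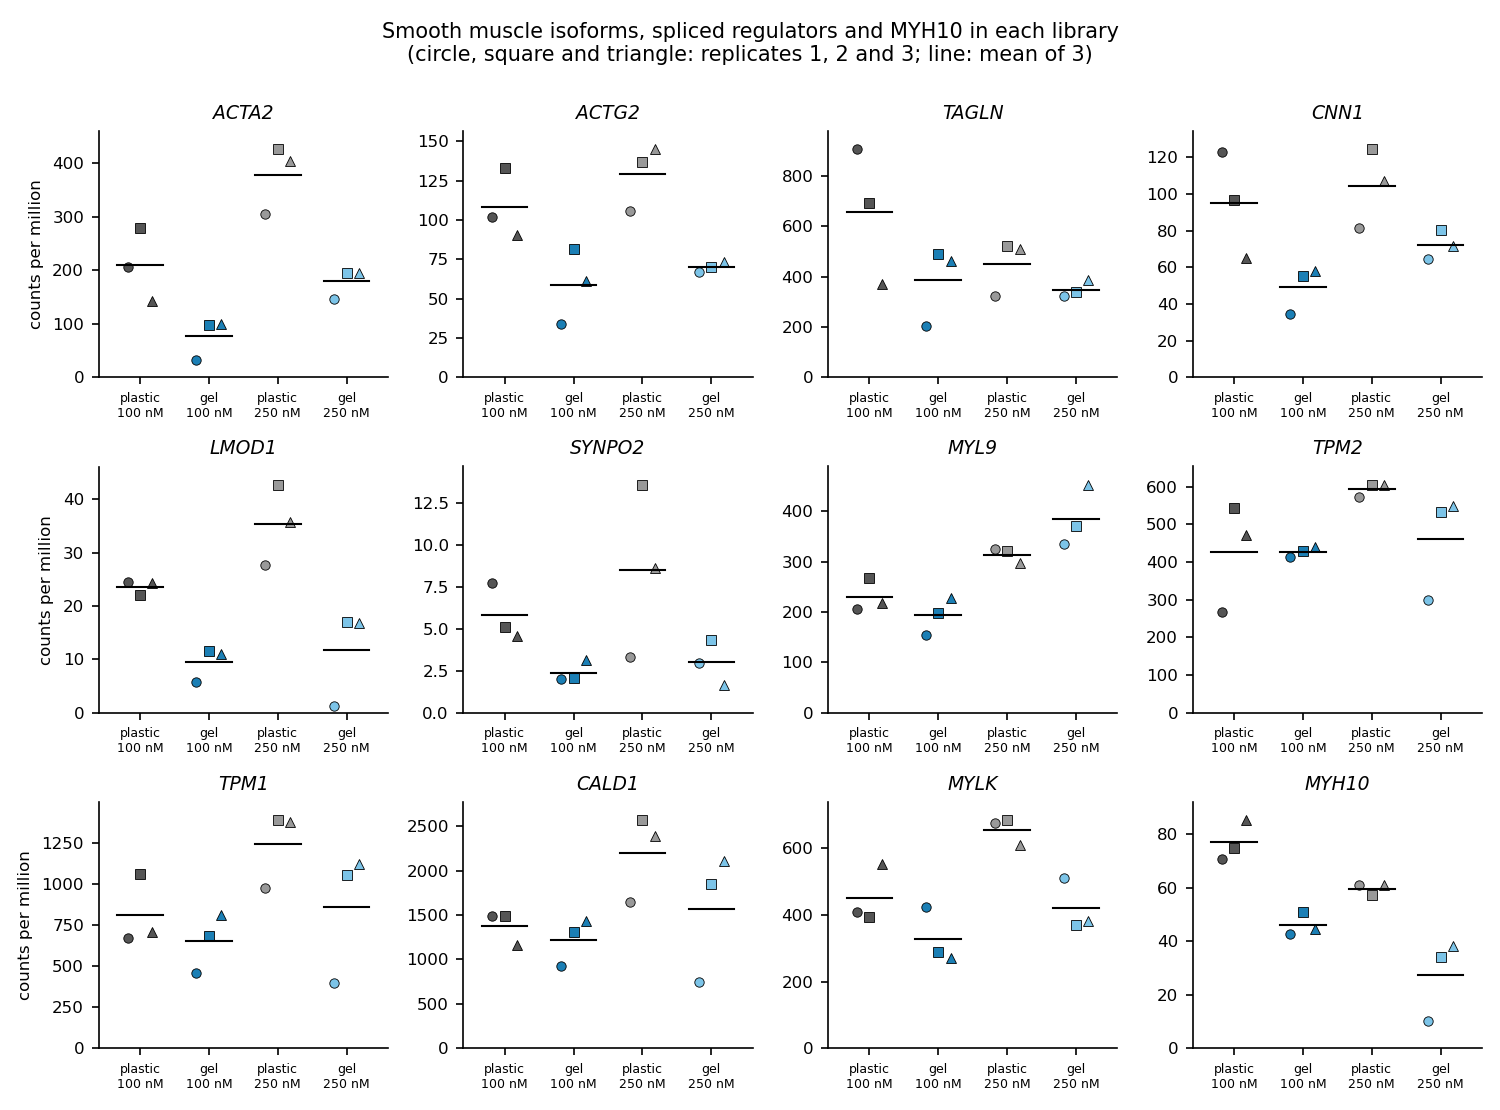
CPM (vertical axes, from 0) of 8 smooth muscle isoforms, 3 spliced regulators and MYH10 in each of the 12 libraries, by substrate and dose; circles, squares and triangles are replicates 1, 2 and 3 and lines are means of 3. All gel points of ACTA2, ACTG2, CNN1, LMOD1 and MYH10 lie below all plastic points of the same dose, and those of MYL9 do not.

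The 3 regulators that smooth muscle splices differently stood lower on gel in fitted value at both doses. EdgeR called 0 of 3 over both doses, beside 0.795% of all tested genes. At an unadjusted p under 0.05 was 1 of 3, MYLK, beside 12.4% of all tested genes. DESeq2 and limma-voom called MYLK, beside 3.13% of genes with an adjusted p and 6.5% of all tested genes. MYLK, myosin light chain kinase, had 410, 395 and 553 CPM on plastic and 423, 289 and 271 on gel at 100 nM. At 250 nM it had 677, 684 and 609 CPM on plastic and 513, 369 and 382 on gel, without overlap. Its log2 change over both doses was -0.55 ± 0.15 (SE; edgeR adjusted p = 0.115).

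TPM1, alpha tropomyosin, had 668, 1061 and 707 CPM on plastic and 458, 683 and 812 on gel at 100 nM. Its levels at 250 nM were 973, 1387 and 1374 CPM on plastic and 397, 1057 and 1123 on gel. CALD1, caldesmon, which holds actin and tropomyosin in the resting state, had 1491, 1486 and 1165 CPM on plastic and 929, 1310 and 1428 on gel at 100 nM, and 1649, 2566 and 2392 on plastic and 747, 1851 and 2108 on gel at 250 nM. Both genes overlapped between substrates at each dose, with replicate 1 the lowest gel library each time. Over both doses the log2 change was -0.43 for TPM1 (95% interval -0.95 to 0.10) and -0.33 for CALD1 (-0.81 to 0.15), or -0.26 and -0.17 without replicate 1 of gel at 250 nM. Gene totals do not separate the smooth muscle splice forms from the others.

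Among the ubiquitous actin and myosin genes the nonmuscle myosin heavy chains stood lower on gel at both doses, whereas ACTB was below plastic in every gel library at 250 nM alone and ACTG1 overlapped at both. MYH10, nonmuscle myosin IIB, had 70.9, 75 and 85.2 CPM on plastic and 42.6, 50.9 and 44.5 on gel at 100 nM, and 60.8, 57.3 and 60.9 on plastic and 10.2, 34.0 and 38.3 on gel at 250 nM. MYH9, nonmuscle myosin IIA and the main motor of stress fibres, had 658, 524 and 706 CPM on plastic and 522, 491 and 446 on gel at 100 nM, and 681, 629 and 633 on plastic and 503, 427 and 509 on gel at 250 nM. For both myosins every gel library lay below every plastic library of its dose. The log2 change over both doses was -0.94 ± 0.23 for MYH10 and -0.40 ± 0.12 for MYH9 (SE; edgeR adjusted p = 0.0786 and 0.147). Without replicate 1 of gel at 250 nM, where MYH10 was at 10.2 CPM, its log2 change was -0.74 and the edgeR adjusted p was 0.00512. MYH10 (ENSG00000133026) lies on chromosome 17 at 8474205 to 8630761 and MYH9 (ENSG00000100345) on chromosome 22 at 36281277 to 36388067.

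CNN3, acidic calponin, had 274, 140 and 91.7 CPM on plastic and 33.6, 99.8 and 76.4 on gel at 100 nM, with the extremes in the 2 libraries numbered 1, and 81.5, 139 and 110 on plastic and 74.7, 95.2 and 97.3 on gel at 250 nM. Its groups overlapped at both doses, and the log2 change over both was -0.79 ± 0.29 (SE; edgeR adjusted p = 0.261). TPM4 was at -0.38 on the log2 scale (95% interval -0.75 to -0.01), with all gel libraries below plastic at 250 nM alone. ACTB, beta actin, was at -0.12 (-0.36 to 0.13), ACTG1, gamma actin, at -0.22 (-0.56 to 0.12), CNN2 at -0.27 (-0.86 to 0.32; -0.64 without replicate 1 of gel at 250 nM), the light chain gene MYL6 at 0.22 (-0.12 to 0.57) and DSTN, destrin, which severs actin filaments, at 0.06 (-0.26 to 0.38). For ACTB and ACTG1 these intervals leave out a fall as large as that of ACTA2.

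The 13 adhesion linkers and crosslinkers had the class median nearest to 0, a log2 change of -0.16 over both doses and a range of -0.49 to 0.25. EdgeR called 0 of 13, beside 0.795% of all tested genes, with 0 at an unadjusted p under 0.05, beside 12.4%. DESeq2 called 0, beside 3.13% of the genes to which it gave an adjusted p. Limma-voom with weighted samples called 1 (FLNA), beside 6.5% of all tested genes. ACTN1, alpha-actinin 1, which crosslinks actin in stress fibres, had 534, 640 and 555 CPM on plastic and 498, 553 and 499 on gel at 100 nM. In the 250 nM libraries it reached 521, 509 and 502 CPM on plastic and 417, 403 and 451 on gel, without overlap but only 1.21-fold apart. FHL2, a LIM protein that binds integrins and SRF, had 294, 324 and 209 CPM on plastic and 121, 220 and 265 on gel at 100 nM, and 306, 518 and 505 on plastic and 326, 400 and 370 on gel at 250 nM. PALLD, palladin, had 282, 369 and 386 CPM on plastic and 304, 321 and 235 on gel at 100 nM, and 244, 223 and 220 on plastic and 35.4, 208 and 179 on gel at 250 nM.

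Their log2 changes over both doses were -0.21 (95% interval -0.45 to 0.02) for ACTN1, -0.36 (-0.79 to 0.07) for FHL2 and -0.49 (-1.15 to 0.17) for PALLD. VCL, vinculin, and TLN1, talin 1, which join integrins to actin, were at -0.20 (-0.61 to 0.20) and -0.16 (-0.59 to 0.27). The crosslinkers ACTN4 and FLNC were at -0.14 and -0.12, the zyxin partner TES at -0.26, the LIM proteins PDLIM5, PDLIM7 and TGFB1I1 at -0.16, 0.05 and 0.02, with the sign of PDLIM7 negative in 5 of 25 alternatives. For VCL and TLN1 the intervals leave out a 2-fold change in either direction. Without replicate 1 of gel at 250 nM, where PALLD was at 35.4 CPM, PALLD was at -0.26, VCL at -0.07 and TES at -0.04.

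FLNA, filamin A, which crosslinks cortical actin, and ZYX, zyxin, a sensor of stress fibre strain, were singled out after their values were seen. FLNA had 463, 235 and 363 CPM on plastic and 210, 164 and 173 on gel at 100 nM, and 224, 170 and 170 on plastic and 420, 127 and 132 on gel at 250 nM. The library that stood apart held the high value on gel at 250 nM. Over both doses FLNA was at -0.34 ± 0.28 on the log2 scale (SE) and without that library at -0.75, where it was called.

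ZYX had 54.4, 50.2 and 39.3 CPM on plastic and 20.1, 43.2 and 33.5 on gel at 100 nM, and 15.7, 12.7 and 14.1 on plastic and 25.1, 25.7 and 38.3 on gel at 250 nM. It was thus lower on gel in fitted value at the low dose and higher in every gel library at the high dose. The log2 change was -0.57 ± 0.27 at 100 nM and 1.06 ± 0.30 at 250 nM (SE), and the difference between them 1.63 with a 95% interval of 0.77 to 2.49. Of all genes and of the members, 0 were called in that difference by edgeR (0% of 12329 genes called; adjusted p = 0.755 for ZYX), with 2 members at an unadjusted p under 0.05, ZYX and FLNA, beside 6.25% of all tested genes, and 0 members called by DESeq2 or limma-voom. ZYX was called in the unfiltered fit.

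SRF itself had 61.8, 42.7 and 48.9 CPM on plastic and 32.8, 39.7 and 43.6 on gel at 100 nM, and 67.0, 79.8 and 56.5 on plastic and 84.3, 54.9 and 81.3 on gel at 250 nM. The substrates overlapped at both doses, with a log2 change of -0.14 over both (95% interval -0.48 to 0.20). CRYAB, alpha-B crystallin, a small heat shock chaperone of desmin and actin, had 15.9, 10.4 and 9.02 CPM on plastic and 4.35, 8.52 and 8.70 on gel at 100 nM, and 16.1, 19.7 and 12.2 on plastic and 3.64, 13.6 and 14.3 on gel at 250 nM. Its log2 change over both doses was -0.66 ± 0.31 (SE; edgeR adjusted p = 0.41), and replicate 1 was the lowest gel library at each dose.

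**Figure D2:**
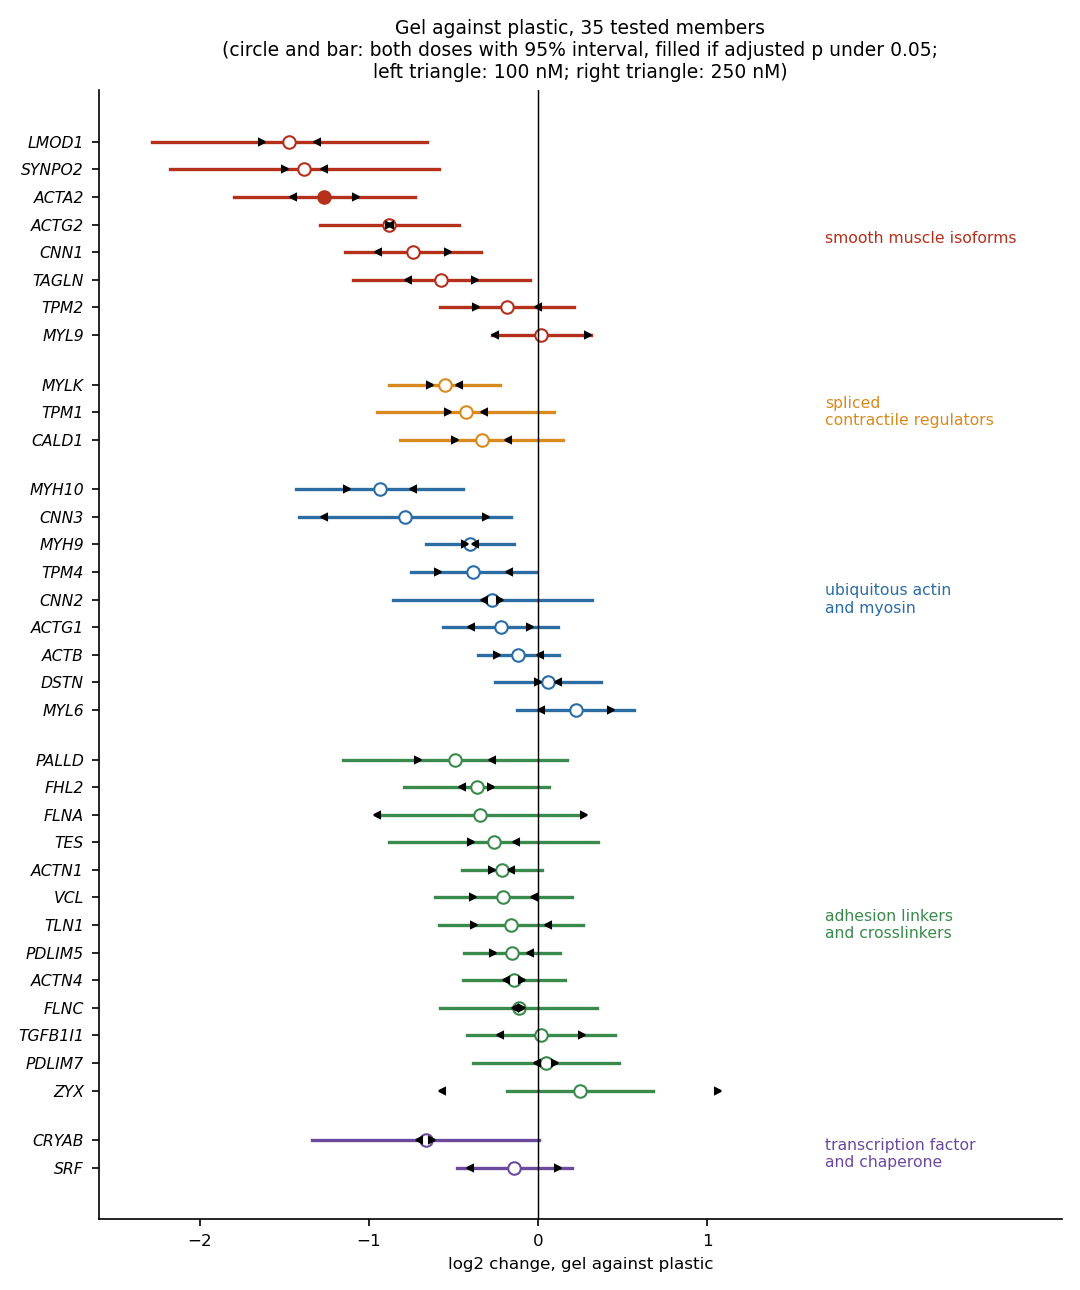
Log2 change of gel against plastic (horizontal axis) for the 35 tested members by class; circles and bars give the estimate over both doses with its 95% interval, the filled circle the adjusted p under 0.05, and triangles each dose. ACTA2 is the 1 filled circle, at -1.26, and ZYX is the gene whose triangles lie farthest apart, -0.57 and 1.06.

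Counted over all members, 0 of 35 were called at 100 nM, where edgeR called 0.219% of 12329 tested genes, and 0 of 35 at 250 nM, where it called 0.00811%. At an unadjusted p under 0.05 there were 11 at 100 nM and 9 at 250 nM, beside 9.86% and 9.93% of all tested genes. DESeq2 called 1 and 0 members, beside 1.32% and 1.03% of the genes to which it gave an adjusted p. Limma-voom called 4 and 5, beside 3.63% and 1.31% of all tested genes. Over both doses 1 of 35 was called against 0.795% of all genes, with 11 at an unadjusted p under 0.05, all lower on gel, where 12.4% of all tested genes had such a p and 6.72% had it with a negative change. Over both doses DESeq2 called 8 members and 3.13% of all genes with an adjusted p, and limma-voom with weighted samples 10 members and 6.5% of all tested genes. Limma-trend on log2 TPM called 0 members with a pseudocount of 1 or 0.1, beside 0.43% and 0.357% of all tested genes. When replicate 1 of gel at 250 nM was dropped edgeR called 5, ACTA2 not among them, beside 1.92% of all tested genes. It called 4 when replicate 1 of plastic at 100 nM was dropped as well, beside 1.98%, and 6, ACTA2 among them, when the first replicates of the 2 gel groups were, beside 2.83%. DESeq2 called ACTA2, ACTG2, CNN1, LMOD1, SYNPO2, MYLK, MYH9 and MYH10, 5 of which are smooth muscle isoforms.

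All gel libraries lay below all plastic libraries of the dose in 10 of 35 members at 100 nM, against 9.38% of all tested genes, and in 13 of 35 at 250 nM, against 7.62%. At both doses this held in 6 of 35 (17.1%), against 1.94% of all tested genes, and the 6 were ACTA2, ACTG2, CNN1, LMOD1, MYH9 and MYH10. Over both doses 29 of 35 members had a negative fitted change, the median being -0.27, beside 50.7% of all tested genes with a median of 0.00.

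By class, the median log2 change over both doses was -0.81 in the 8 tested smooth muscle isoforms, -0.43 in the 3 spliced regulators, -0.27 in the 9 ubiquitous actin and myosin genes and -0.16 in the 13 linkers, with 7 of 8, 3 of 3, 7 of 9 and 10 of 13 negative. Under the alternatives the smooth muscle median ran from -0.91 to -0.66 and stayed the lowest of the 5 classes in each. Of the 11 members with a strict CArG box in a window 10 were negative, and of the 20 with windows but no strict box 16. The median log2 change with and without the box was -0.40 and -0.23 at 100 nM, -0.27 and -0.38 at 250 nM, and -0.27 and -0.27 over both doses. The difference between these sets was not tested.

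The 4 actins of the list offer a comparison within 1 gene family. ACTA2 made up 2.96%, 3.30% and 1.94% of their summed TPM on plastic and 0.531%, 1.32% and 1.42% on gel at 100 nM. At 250 nM its share was 3.96%, 4.72% and 4.66% on plastic and 1.92%, 2.72% and 2.72% on gel. ACTG2 made up 1.00%, 1.09% and 0.849% on plastic and 0.372%, 0.774% and 0.603% on gel at 100 nM, and 0.948%, 1.05% and 1.16% and 0.605%, 0.674% and 0.719% at 250 nM. Both smooth muscle actins thus took a smaller share on gel in every library of each dose, whereas the shares of ACTB overlapped between substrates and ACTG1 was higher on gel at 250 nM alone. On counts without length the ACTA2 share was 2.41% to 3.87% on plastic and 0.741% to 1.75% on gel at 100 nM, and 4.91% to 5.56% and 2.23% to 3.29% at 250 nM. Coding regions of the actins are close in sequence, so how RSEM divided shared reads between them bears on these shares.

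**Figure D3:**
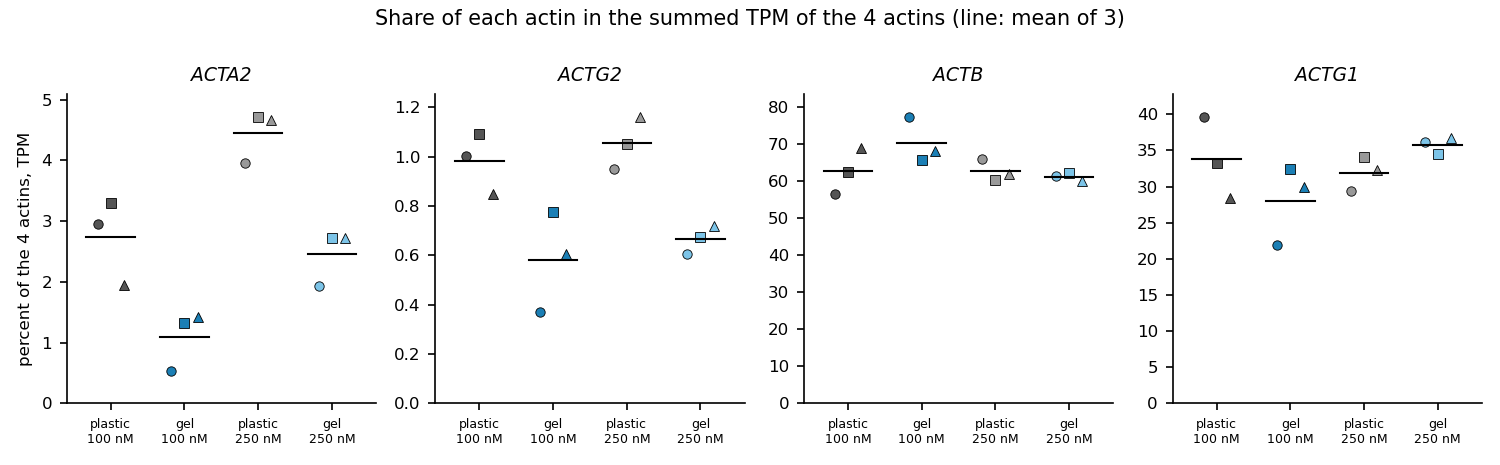
Share of each actin gene in the summed TPM of ACTA2, ACTG2, ACTB and ACTG1 (percent, vertical axes from 0) in each library; symbols are replicates 1 to 3 and lines are means of 3. The ACTA2 share lies between 1.94% and 3.30% on plastic and between 0.531% and 1.42% on gel at 100 nM, and ACTB and ACTG1 together hold the rest of the pool beside ACTG2.

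In the other families no member had a share apart between substrates at both doses. MYH9 made up 91.5% to 99.3% of the summed TPM of the 3 myosin heavy chains over the 12 libraries, and the MYH10 share was lower on gel without overlap at 250 nM alone, at 4.92%, 4.17% and 4.91% on plastic and 0.696%, 3.96% and 3.63% on gel. CNN1 held 52.0% to 67.9% of the summed calponin TPM, with overlap at both doses. TPM1, TPM2 and TPM4 shares of the tropomyosins overlapped as well. TPM3, the remaining tropomyosin, is not a member and was singled out after its values were seen. It made up 19.0%, 15.6% and 17.4% on plastic and 24.1%, 20.3% and 21.2% on gel at 100 nM, and 13.4%, 12.9% and 12.6% on plastic and 25.8%, 17.5% and 15.6% on gel at 250 nM, a larger share in every gel library.

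All members together took 2.56% to 2.93% of protein-coding counts on plastic and 2.21% to 2.52% on gel at 100 nM, and 2.79% to 2.90% and 2.16% to 2.51% at 250 nM, without overlap at either dose. In bulk RNA, fewer contractile cells and less contractile RNA per cell cannot be told apart. Within the gel groups the libraries numbered 1 most often held the lowest values. Replicate 1 of gel at 100 nM was the lowest library of its group in 24 of 35 members, and in 8 of 8 smooth muscle isoforms, where it was the lowest in 40.1% of all tested genes. Replicate 1 of gel at 250 nM was the lowest in 24 of 35 members and 7 of 8 smooth muscle isoforms, beside 46.5% of all tested genes. Without both of these libraries the log2 change of ACTA2 over both doses was -1.02 (edgeR adjusted p = 0.00445) and the median of the smooth muscle isoforms -0.66. The pattern was not confined to gel. Replicate 1 of plastic at 250 nM was the lowest of its group in 20 of 35 members and 7 of 8 smooth muscle isoforms. It was the lowest there in 38.3% of all tested genes.

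**Figure D4:**
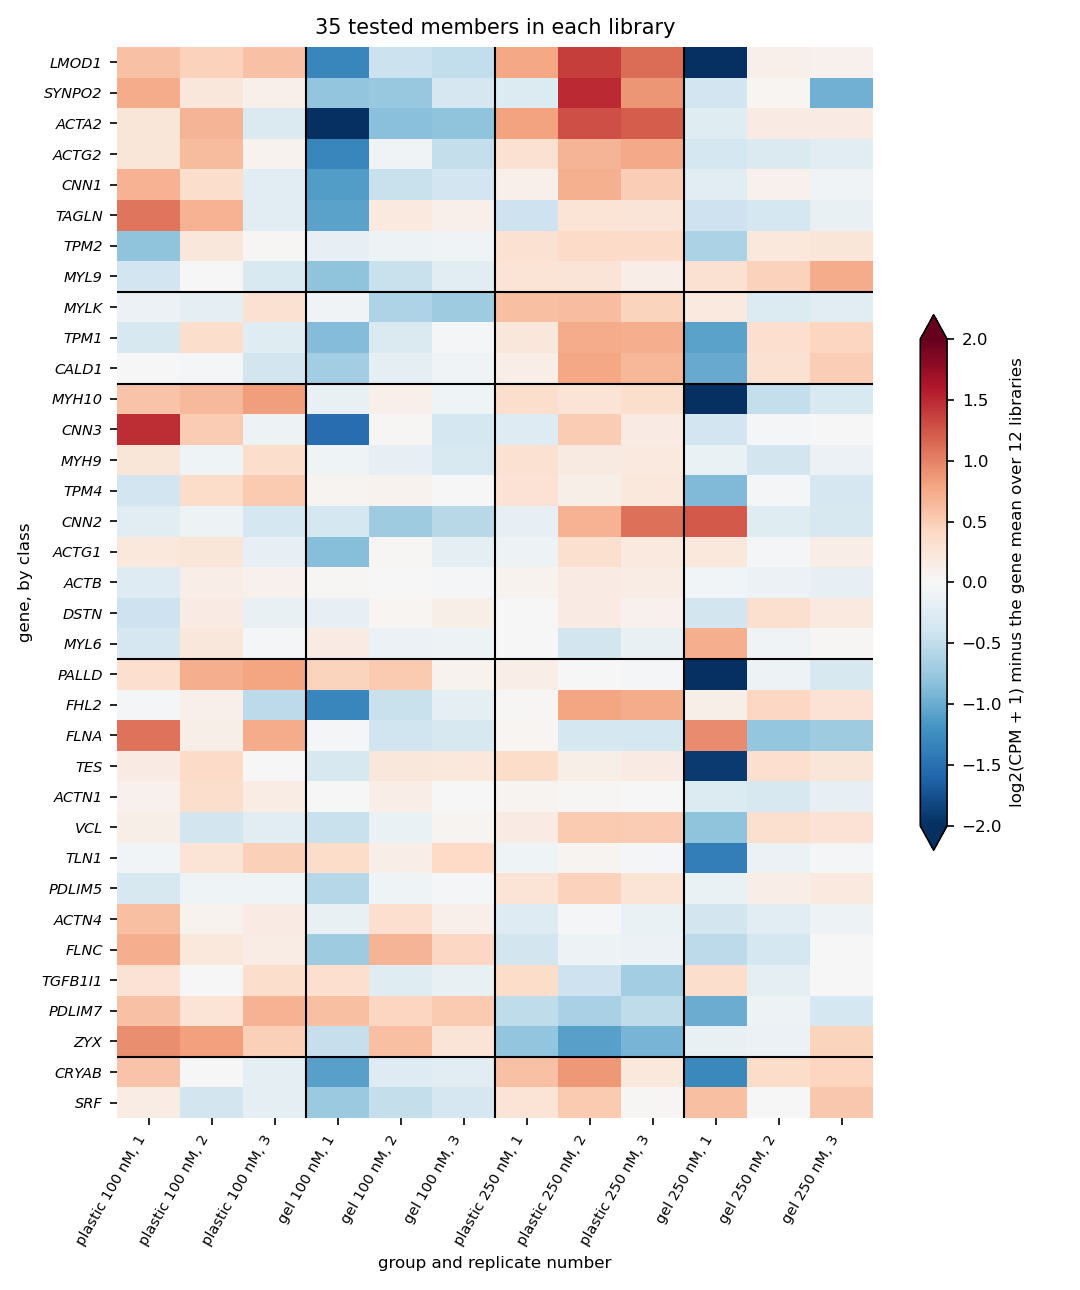
Log2(CPM + 1) of the 35 tested members minus each gene's mean over the 12 libraries (colour, blue for lower and red for higher), with libraries in columns by group and replicate and genes in rows by class. Replicate 1 of gel at 100 nM and replicate 1 of gel at 250 nM have the lowest value of all 12 libraries in 11 and 12 members.

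Comparing the doses within a substrate compares the library sets as well. On plastic edgeR called 2 of 35 members between the doses (5.71%), against 8.61% of all tested genes, and on gel 4 of 35 (11.4%), against 13.8%. On neither substrate was the edgeR share above that of all genes, so these calls do not set the members apart. DESeq2 called 3 and 5, beside 13.5% and 19.5% of the genes to which it gave an adjusted p, and limma-voom 11 and 8, beside 25.7% and 23.7% of all tested genes. On gel, ACTA2, MYL9 and SRF were higher in the 250 nM libraries and PDLIM7 lower, and on plastic ZYX and PDLIM7 were lower.

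MYL9, with the per-library values given above, was 1.99-fold higher at 250 nM on gel (log2 change 1.00 ± 0.20, SE; edgeR adjusted p = 0.00768) and was called in 26 of 26 alternatives. SRF was 1.90-fold higher there (0.93 ± 0.23; edgeR adjusted p = 0.018), called in 19 of 26, with adjusted p up to 0.0682 when replicate 1 or 2 of gel at 100 nM or replicate 3 of gel at 250 nM was left out. ACTA2 was 2.33-fold higher (1.22 ± 0.35; edgeR adjusted p = 0.0361), called in 15 of 26, and the call ended without replicate 1 or 2 of gel at 100 nM, replicate 2 or 3 of plastic at 250 nM or any library of gel at 250 nM. On plastic the log2 changes of MYL9, SRF and ACTA2 were 0.45 ± 0.20, 0.40 (95% interval -0.08 to 0.89) and 0.85 ± 0.35, and edgeR called none of the 3 there. ACTA2 was called on plastic in 5 of 26 alternatives, limma-voom among them.

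PDLIM7, a LIM protein of actin-anchored Z-discs and stress fibres, had 17.7, 14.1 and 19.3 CPM on plastic and 18.0, 15.9 and 17.0 on gel at 100 nM, and 7.86, 7.04 and 7.85 on plastic and 5.29, 10.7 and 8.85 on gel at 250 nM. It fell by 1.16 on the log2 scale on plastic (edgeR adjusted p = 0.0245) and by 1.05 on gel (adjusted p = 0.0263), with no overlap between doses on either substrate. Those calls stood in 21 of 26 and 18 of 26 alternatives. On plastic they ended without replicate 1 or 3 at 100 nM or any replicate at 250 nM, and on gel without any replicate at 100 nM or replicate 1 or 3 at 250 nM. ZYX fell by 1.75 on plastic (edgeR adjusted p = 0.00512, called in 26 of 26 alternatives), while on gel its log2 change was -0.12 ± 0.28 (SE). ZYX (ENSG00000159840) lies on chromosome 7 at 143381080 to 143391111 and PDLIM7 (ENSG00000196923) on chromosome 5 at 177483394 to 177497606.

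**Figure D5:**
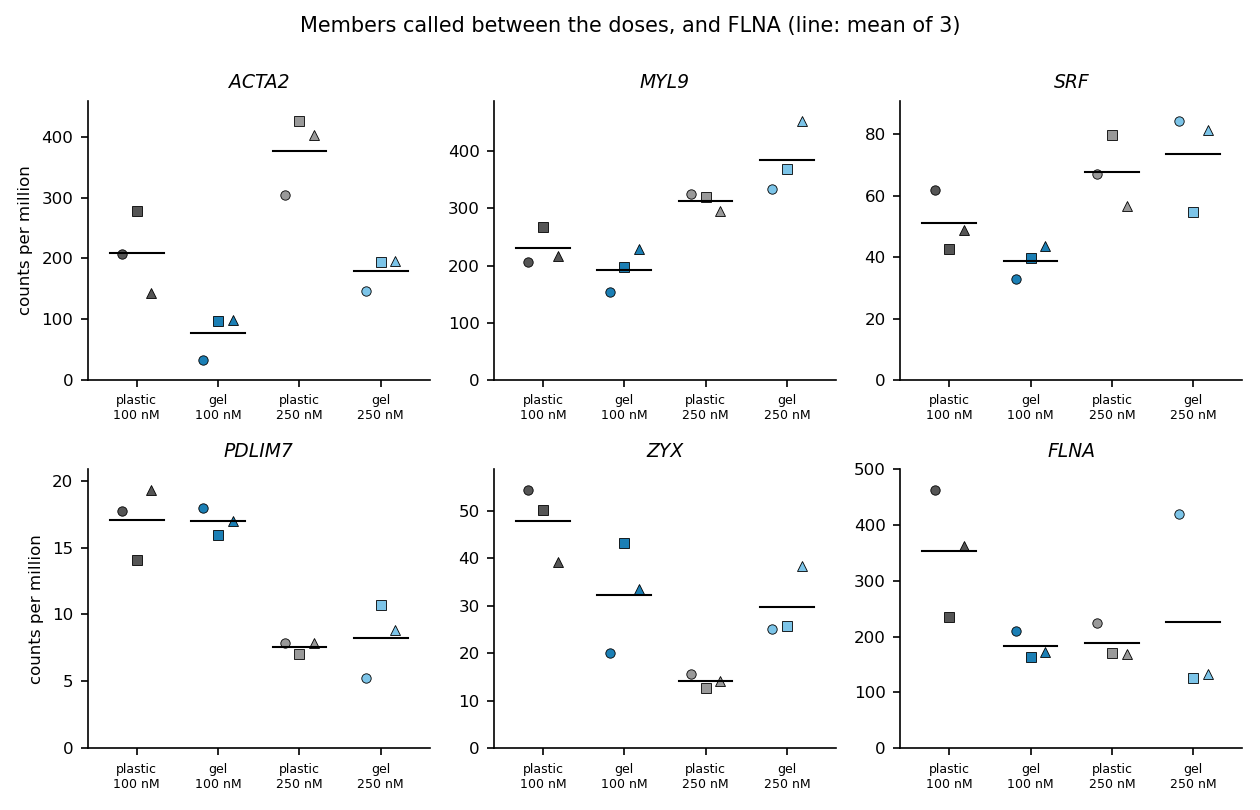
CPM (vertical axes, from 0) of the 5 members called between the doses and of FLNA in each library; symbols are replicates 1 to 3 and lines are means of 3. PDLIM7 lies at 14.1 to 19.3 in the 100 nM libraries and at 5.29 to 10.7 in the 250 nM libraries, and ZYX on plastic drops from 39.3 to 54.4 to a range of 12.7 to 15.7.

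The genes of the SRF coactivators were low and varied between libraries. MRTFA averaged 4.04 ± 2.41 CPM on plastic and 2.75 ± 1.79 on gel at 100 nM, and 5.0 ± 1.67 and 7.69 ± 5.95 at 250 nM (SD, n = 3 each). MRTFB averaged 5.98 ± 1.17 and 5.18 ± 1.66 at 100 nM and 6.88 ± 2.28 and 3.82 ± 1.32 at 250 nM, and MYOCD, the myocardin of smooth and cardiac muscle, 9.46 ± 5.89 and 11 ± 5.38, then 6.71 ± 2.65 and 3.40 ± 1.4. EdgeR called none of the 3 in any comparison, DESeq2 called MYOCD between the doses on gel, and their log2 changes over both doses were 0.03 ± 0.47, -0.52 ± 0.30 and -0.38 ± 0.41 (SE). RNA levels do not show where the MRTF proteins are in the cell.

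A further 20 contractile and cytoskeletal genes outside the members gave 18 tested, with a median log2 change of -0.16 over both doses. EdgeR called 0 of the 18 there, beside 0.795% of all tested genes. At an unadjusted p under 0.05 were 5, beside 12.4%, in both directions (CSRP2 and LMO7 negative, PDLIM4, SVIL and SMTN positive). DESeq2 called 2 of the 18, LMO7 lower and PDLIM4 higher, beside 3.13% of genes with an adjusted p. Limma-voom called 4, adding CSRP2 lower and SVIL higher to these, beside 6.5% of all tested genes. DES, the desmin of differentiated muscle, did not pass the filter, with at most 2.36 CPM in a library. LMO7, an adherens junction protein, was the one gene of this list below plastic in every gel library of both doses, with 234, 243 and 252 CPM on plastic and 114, 209 and 171 on gel at 100 nM, and 204, 206 and 201 and 83.9, 128 and 158 at 250 nM (edgeR adjusted p = 0.103 over both doses). Between the doses edgeR called 11.1% of the 18 on plastic, against 8.61% of all tested genes, and 16.7% on gel, against 13.8%. These shares were near those of all genes, and dose coincides with the library set. PDLIM1, a LIM protein of stress fibres, rose between the doses on plastic and gel by 0.67 and 0.76 on the log2 scale (edgeR adjusted p = 0.0301 and 0.0141). VASP, which extends actin filaments at adhesions, fell, with log2 changes of -1.0 and -1.08 (0.0156 and 0.0093), and LPP, a zyxin relative, fell on gel by 1.41 (0.00588). VASP and LPP were called on gel in 26 of 26 alternatives. The plastic calls ended without replicate 1 at 100 nM or replicate 2 or 3 at 250 nM for VASP and without any plastic library or replicate 2 of gel at 250 nM for PDLIM1, whose gel call ended without replicate 3 of gel at 250 nM.

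Of the 36 members 27 have a gene on the opposite strand that overlaps them in GENCODE 29. The strand setting of the counting is not given in the sources used here, so reads of such partners could not be told apart.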

How the data were processed

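Polyadenylated RNA of 12 libraries was sequenced. Trimmomatic, STAR, RSEM and DESeq2 1.36.0, with build GRCh38, were used per the submitters' processing notes; the sources used here give no other version, no annotation release and no strand setting. Expected counts (fractional reads per gene), TPM values and effective lengths in bases were deposited as RSEM gene tables, per the file headers.

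Expected counts were rounded and tested with edgeR 4.0.16 in R 4.3.3 (filterByExpr by group, 12329 genes kept, TMM, robust quasi-likelihood fit of 4 group means, 8 residual degrees of freedom). Each of 6 comparisons was adjusted by Benjamini-Hochberg over all tested genes and called under 0.05. The common biological coefficient of variation was 0.299, and the median SE of a member's log2 change was 0.268 at 100 nM, 0.284 at 250 nM and 0.200 over both doses. The fit was tested on simulated data.

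Alternatives were other size factors, no filter, DESeq2 1.42.0, limma 3.58.1 (voom with sample weights, trend on log2 TPM plus 1 or 0.1), a replicate block, the 6 libraries compared alone, no mitochondrial or ribosomal repeat loci, libraries left out and, added after the data were seen, non-robust priors and both gel libraries numbered 1 left out.

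The members and lists were chosen with earlier results of these data known. Per-library values were given for the smooth muscle isoforms, the spliced regulators, members called between substrates and the 3 members of each other class with the smallest p over both doses; ZYX, FLNA and PDLIM7 were added after their values were seen. Promoters came from RefSeq and coordinates from GENCODE 29. A signalling gene list that was also tested is not reported here.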

Additional observations from a re-analysis of the deposited data

How the results depend on the processing

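Without a filter on low counts edgeR called 6 members between substrates at 100 nM (0 with the filter), 4 at 250 nM (0) and 9 over both doses (1). It called 1 in the difference between doses (0), 5 between doses on plastic (2) and 9 on gel (4). Of the 28787 genes tested without the filter it called 231, 181, 468, 63, 1464 and 2195 in these comparisons. The shares were 0.802%, 0.629%, 1.63%, 0.219%, 5.09% and 7.62%. Over both doses it called 2 with RLE or upper-quartile size factors, beside 0.819% and 0.925% of all tested genes. It called 3 with library totals alone, beside 0.819%, and 2 with a replicate block (ACTA2 and ACTG2), beside 0.868%. DESeq2 called 1 at 100 nM and 8 over both doses, beside 163 and 385 of all genes. Limma-voom with sample weights called 4 at 100 nM, 5 at 250 nM, 10 over both doses, 11 between doses on plastic and 8 on gel, beside 447, 161, 801, 3173 and 2925 of all genes. Limma-trend on log2 TPM called 0 over both doses and 2 between doses on gel with either pseudocount, the latter beside 11.7% and 10.4% of all tested genes. On the 6 libraries compared alone 5 were called between doses on plastic and 1 on gel, beside 14.6% and 4.56%. Leaving out 1 library gave 0 to 3 members at 100 nM, 0 to 5 over both doses, 1 to 7 between doses on plastic and 1 to 4 on gel. All genes called then ran from 5 to 119, 38 to 262, 118 to 2228 and 679 to 1861. Without both libraries that stood apart 1 was called at 100 nM, 4 over both doses and 7 between doses on plastic, beside 0.549%, 1.98% and 17.0% of all tested genes. Without replicate 1 of both gel groups the counts were 3 at 100 nM, 6 over both doses, 13 between doses on plastic and 2 on gel. Beside these stood 0.9%, 2.83%, 20.1% and 5.91% of all tested genes, so the shares of all genes moved with the settings as well. The causes were not tested.

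Called members kept their sign in every alternative run. Over both doses the median of the members ran from -0.43 to -0.17. All genes called over both doses ran from 38 to 801, against 98. The labels do not say whether libraries of the same replicate number were paired, and pairing was not tested. Across genes, deviations of same-numbered libraries correlated at -0.21, 0.14 and -0.24 at 100 nM and 0.11, 0.06 and 0.03 at 250 nM. Between plastic and gel libraries of different number the correlations ran from -0.29 to 0.39 at 100 nM and from -0.09 to 0.06 at 250 nM. The block raised all genes called over both doses from 98 to 107.

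Depth limits scarce members most: LMOD1 and SYNPO2 had as few as 4 counts in a library and MYH11 at most 8. Calls of PDLIM7 and ZYX between the doses rest on few counts too. At 250 nM PDLIM7 had 15 to 22 counts per library and ZYX 27 to 38 on plastic.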

Other observations

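Among the pericyte and smooth muscle markers, which are not members, PDGFRB, the receptor of platelet-derived growth factor on pericytes and fibroblasts, was lower on gel. It had 95.8, 60.9 and 73.3 CPM on plastic and 39.5, 43.4 and 39.6 on gel at 100 nM, and 61.2, 46.0 and 35.3 and 34.4, 19.4 and 27.8 at 250 nM, without overlap at either dose. Over both doses it fell by 0.85 on the log2 scale (edgeR adjusted p = 0.0452), where edgeR called 0.795% of all tested genes. The PDGFRB call stood in 10 of 25 alternatives and, with 1 library left out, only without replicate 1 of gel at 250 nM. CSPG4, the NG2 proteoglycan of pericytes, had 54.7, 28.8 and 37.8 CPM on plastic and 25.8, 38.9 and 44.1 on gel at 100 nM, and 68.7, 67.6 and 59.7 and 81, 75.7 and 67.4 at 250 nM. Its log2 change between substrates over both doses was 0.02 ± 0.18 (SE). Both genes were named after their values were seen, from a list of 10 markers of which 7 were tested. In the same list SMTN had a positive change over both doses at an unadjusted p under 0.05. MYOCD had a negative one that edgeR did not call.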
